A study of Homo sapiens with 10 samples.

Results

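The genes described here were the numbered zinc finger genes of human chromosome 19. A gene was a member when its symbol was ZNF followed by a number, with or without a closing letter, when all its exons lay on chromosome 19, and when it had at least 10 raw counts in each control library. This gave 238 members of 264 such genes on the chromosome, 74 of 93 on the short arm (19p) and 164 of 171 on the long arm (19q), within 59386 genes listed for each library. Members were thus chosen by their raw counts in the 2 control libraries. That floor is a level and not a difference, levels in the controls are given as a description, and every member was retained by the expression filter of the fit. RNA was sequenced from VCaP, a human prostate cancer cell line, 72 h after transfection in 5 conditions with 2 libraries each. These were siRNA A or siRNA B against *SMARCA4*, siRNA A or siRNA C against *SMARCA1*, each at 30 pmol, and a control whose siRNA and dose the labels do not name. *SMARCA4* is a motor ATPase of SWI/SNF chromatin remodelers and *SMARCA1* a motor ATPase of ISWI remodelers, and the knockdowns were part of a study of the long noncoding RNA *IGF1R-AS1* and its ties to these complexes. All conditions share 1 cell line, the labels do not say whether the 2 libraries of a condition came from separate cultures, and p-values then measure only the spread between these libraries.

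Zinc finger proteins of this family bind DNA through a row of C2H2 fingers, each of which folds around a zinc ion and contacts a few bases. Many of them carry a KRAB domain ahead of the fingers, which recruits the corepressor *TRIM28*. *TRIM28* in turn brings the histone methyltransferase *SETDB1* and HP1 proteins, and H3K9me3 is laid down on transposable elements and on other targets. Chromosome 19 holds the largest set of these genes, in tandem clusters that arose by duplication, and the bodies of the genes themselves carry H3K9me3 that is placed through *ZNF274*.

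Total counts lay between 23898545 and 34667965 per library, and a count of 0 allowed up to 0.0865 to 0.126 CPM (counts per 1000000 counts, scaled by TMM from here on), counting error only. *SMARCA4* was at 242 to 268 CPM in the controls, 13.3 to 25.2 CPM in its knockdown and 228 to 249.7 CPM in *SMARCA1* knockdown, and *SMARCA1* was at 31.5 to 32.3, 57.4 to 83.8 and 1.75 to 3.40 CPM. All 12 VCaP markers examined were above 1 CPM, *ERG* among them, while 5 of 10 markers of blood, stromal, endothelial and liver cells stayed under 1 CPM in every library and *ALB* stood at 132 to 138 CPM in the controls. The 12 VCaP markers summed to 11395 to 11468 CPM in the controls, 11291 to 12119 CPM in *SMARCA4* knockdown and 9933 to 11309 CPM in *SMARCA1* knockdown. These sums hide changes each way. Against the controls 5 were higher and 2 lower with *SMARCA4* knockdown, where 22.8% and 22.3% of all genes were. With *SMARCA1* knockdown 2 were higher and 5 lower, where 23.8% and 23.0% of all genes were. Mean *KLK2* went from 4803 to 2964 CPM and *KRT8* from 540 to 1707 CPM with *SMARCA4* knockdown. Of the 12, 6 were higher and 0 lower with *SMARCA4* than with *SMARCA1* knockdown. The 10 other markers, mostly *ALB*, summed to 145 to 147, 109 to 154 and 78.1 to 87.7 CPM in the same order. Of the 7 that could be tested, 2 were higher and 0 lower with *SMARCA4* knockdown, where 22.8% and 22.3% of all genes were. With *SMARCA1* knockdown 2 were higher and 2 lower (*ALB* and *COL1A2*), where 23.8% and 23.0% of all genes were. The rises were in *LYZ*, a gene of myeloid cells, at 0.795 and 0.520 CPM in the controls, 1.68 to 15.4 with *SMARCA4* and 8.04 to 22.5 with *SMARCA1* knockdown, and in *COL1A1*, a gene of stromal cells, at 4.14 and 7.13, 5.88 to 14.1 and 8.04 to 18.5 CPM. Between the knockdowns 3 of the 7 were higher and 1 lower with *SMARCA4*, where 16.3% and 19.1% of all genes were called in these directions. Neither list's part in the members' differences was tested, and in such bulk samples fewer cells of a kind and less RNA per cell cannot be told apart. Interferon genes rose with every targeting siRNA. The summed level of 20 of them was 328 to 337 CPM in the controls, 15722 to 41496 CPM in *SMARCA4* knockdown and 21817 to 41880 CPM in *SMARCA1* knockdown, and all 20 were called higher in each. They thus moved with every difference from the controls given below, and their part in those differences was not tested. Between the knockdowns 2 of the 20 were higher and 1 lower with *SMARCA4* knockdown. Members took 0.564% and 0.570% of the counts in the controls and 0.672% to 0.699% in *SMARCA4* knockdown. The first library of *SMARCA1* siRNA A stood apart. There members took 0.463% of its counts, against 0.543% to 0.565% in the other 3 libraries of *SMARCA1* knockdown, so the main medians are given with and without it. Between the 2 libraries of a condition, the mean chi-square per gene against counting error alone was 60.6 for *SMARCA1* siRNA A. It was 42.9 and 22.6 for *SMARCA4* siRNA A and siRNA B, 6.39 for the controls and 3.80 for *SMARCA1* siRNA C. Pairs of the *SMARCA4* siRNAs thus also differed more than that of the controls.

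The controls expressed members from 0.516 to 305 CPM, with a median of 12.9 CPM (9.53 on 19p and 15.5 on 19q). Members were grouped where neighbouring starts lay within 1000000 bases, and the groups were numbered 1 to 17 from the 19p end. Groups with at least 5 members are described as clusters, and the other 10 members stood in smaller groups. On 19p these were cluster 1 (chr19:2819868-2944971, 5 members), cluster 2 (chr19:7069703-9793180, 14), cluster 3 (chr19:11483427-12640098, 23) and cluster 6 (chr19:19668796-24129968, 31), and on 19q cluster 9 (chr19:34542462-34964229, 5), cluster 10 (chr19:36182276-37817300, 27), cluster 13 (chr19:43525497-45076587, 23), cluster 16 (chr19:51571283-53580269, 41) and cluster 17 (chr19:55476617-58481230, 59), all in GRCh38. Cluster 16 took 41.1% of the summed member CPM in the controls. Per kb of exon, the 5 members at the highest level in the controls were *ZNF615* at 61.6 CPM per kb, *ZNF146* at 60.7, *ZNF761* at 54.2, *ZNF614* at 50.9 and *ZNF649* at 40.2, against a median of 2.24 over members, and all but *ZNF146* of cluster 10 lay in cluster 16. Of the 26 genes left out, 17 had no count in at least 1 control, and 9 of these had no count in any library. The values nearest the floor, in raw counts of both controls, were 20 and 11 for *ZNF56*, 14 and 12 for *ZNF788P* and 13 and 14 for *ZNF846* just inside it. Just outside stood *ZNF575* with 6 and 15 and *ZNF878* with 24 and 5.

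By symbol, 237 members matched GENCODE, 228 of them as protein coding genes, 7 as pseudogenes and 2 as long noncoding RNAs. Translated coding sequences held 1 to 31 fingers with a median of 12, and *ZNF91*, which silences SVA retrotransposons, had the 31. A KRAB-A-like pattern (F, any residue, D, V or L, any residue, V or I, 1 or 2 residues, F, S or T, 2 residues, E, W) was found in 153, and in 170 when the last residue could also be L. The pattern misses domains that depart from it. For 17 members over 20% of the exon bases were shared with another gene of the same strand, *ZNF324* and *ZNF887P* among those named here, and their counts are uncertain, as are those of members whose near-identical copies can share reads.

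RefSeq promoters (GRCh38.p14, 250 bases before to 50 after the start) were found for 204 members. They held a median of 60.2% C and G, against 58.7% in all 35116 promoters, and a CpG observed to expected ratio of 0.771 against 0.579. The letters CCGGAAGT, a core bound by ETS factors, stood on either strand in 43 of 204 member promoters (21.1%), 4.14% of all 35116 promoters and 8.02% of the 11677 promoters of genes in the fit. AAGATGGC, a core bound by YY1, stood in 14 of 204 member promoters (6.86%), 2.89% of all 35116 promoters and 4.98% of the 11677 promoters of genes in the fit. GCATGCGC, bound by NRF1, stood in 9 of 204 member promoters (4.41%), 3.05% of all 35116 promoters and 5.23% of the 11677 promoters of genes in the fit. The E-box CACGTG stood in 9 of 204 member promoters (4.41%), 7.26% of all 35116 promoters and 9.79% of the 11677 promoters of genes in the fit, and the interferon response core GAAANNGAA in 8 of 204 member promoters (3.92%), 8.11% of all 35116 promoters and 6.47% of the 11677 promoters of genes in the fit. A match is a description of the letters and not a bound site.

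Of the 14 members with AAGATGGC, 4 were neighbours of cluster 16 that recur in the comparisons, *ZNF613*, *ZNF615*, *ZNF614* and *ZNF432*. The 250 bases before their starts are printed 5′ to 3′ on the strand of the gene, with AAGATGGC or its reverse complement in capitals. *ZNF613* lay at chr19:51927222-51927471 on the plus strand, *ZNF615* at chr19:52008212-52008461 on the minus strand, *ZNF614* at chr19:52028380-52028629 on the minus strand and *ZNF432* at chr19:52048839-52049088 on the minus strand.
*ZNF613*: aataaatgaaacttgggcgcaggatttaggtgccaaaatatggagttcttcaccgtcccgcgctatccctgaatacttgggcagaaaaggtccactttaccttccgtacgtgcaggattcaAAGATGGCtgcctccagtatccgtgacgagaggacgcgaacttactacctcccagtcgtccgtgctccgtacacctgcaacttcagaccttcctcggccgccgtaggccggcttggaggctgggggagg
*ZNF615*: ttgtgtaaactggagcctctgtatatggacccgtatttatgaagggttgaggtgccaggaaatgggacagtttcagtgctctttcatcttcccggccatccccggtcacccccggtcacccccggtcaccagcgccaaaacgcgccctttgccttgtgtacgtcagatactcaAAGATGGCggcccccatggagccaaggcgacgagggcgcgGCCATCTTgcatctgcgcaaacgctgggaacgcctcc
*ZNF614*: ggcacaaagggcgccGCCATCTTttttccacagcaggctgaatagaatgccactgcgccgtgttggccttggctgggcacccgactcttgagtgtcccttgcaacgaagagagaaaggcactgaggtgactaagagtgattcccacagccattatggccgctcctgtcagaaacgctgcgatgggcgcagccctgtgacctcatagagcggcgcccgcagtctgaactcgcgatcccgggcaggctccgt
*ZNF432*: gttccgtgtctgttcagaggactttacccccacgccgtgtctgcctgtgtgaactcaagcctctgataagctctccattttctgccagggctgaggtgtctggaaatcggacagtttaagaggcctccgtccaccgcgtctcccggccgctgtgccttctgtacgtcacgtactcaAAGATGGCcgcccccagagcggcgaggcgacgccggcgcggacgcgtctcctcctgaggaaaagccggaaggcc
*ZNF615* held the letters on each strand, starting 77 and 37 bases before the start of the gene, and *ZNF614* held them as the reverse complement 235 bases before it. In *ZNF613*, *ZNF615* and *ZNF432* the letters read in the direction of the gene, and the 30 bases ahead of them had 24 in common between *ZNF615* and *ZNF432*, 21 between *ZNF613* and *ZNF432* and 19 between *ZNF613* and *ZNF615*.

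For CCGGAAGT, the promoters of 3 cluster 17 members with a known part in silencing or in tumours show where it lay. They are *ZNF274* (chr19:58182811-58183060 on the plus strand), *ZNF671* (chr19:57727625-57727874 on the minus strand) and *ZNF587* (chr19:57849609-57849858 on the plus strand), with the reverse complement of the letters in capitals.
*ZNF274*: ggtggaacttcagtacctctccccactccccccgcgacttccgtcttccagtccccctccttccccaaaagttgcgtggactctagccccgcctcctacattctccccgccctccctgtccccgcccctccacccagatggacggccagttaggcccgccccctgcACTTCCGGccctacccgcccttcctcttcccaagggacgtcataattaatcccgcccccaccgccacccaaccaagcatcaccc
*ZNF671*: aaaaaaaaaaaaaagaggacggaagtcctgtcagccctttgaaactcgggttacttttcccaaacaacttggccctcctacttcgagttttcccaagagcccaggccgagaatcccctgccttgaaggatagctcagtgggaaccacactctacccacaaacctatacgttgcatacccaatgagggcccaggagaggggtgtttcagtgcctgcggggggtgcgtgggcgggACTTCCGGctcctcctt
*ZNF587*: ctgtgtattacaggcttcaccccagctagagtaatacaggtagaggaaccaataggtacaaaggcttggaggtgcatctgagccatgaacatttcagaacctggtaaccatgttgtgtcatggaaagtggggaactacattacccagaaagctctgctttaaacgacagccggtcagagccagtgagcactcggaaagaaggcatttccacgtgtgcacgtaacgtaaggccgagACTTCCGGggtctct
The match printed began 84 bases before the start in *ZNF274*, 17 in *ZNF671* and 15 in *ZNF587*. *ZNF274* held a second match, also as the reverse complement, after the start and outside the bases printed.

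The comparison of *SMARCA4* with *SMARCA1* knockdown asks where these knockdowns differ. It sets knockdown libraries against each other, while the filter and the estimate of spread of its fit take in the control libraries, whose counts chose the members. More members were higher with *SMARCA4* knockdown than lower. Of 238, 78 were called higher and 11 lower (adjusted p below 0.05 over all 16899 genes, edgeR's quasi-likelihood test), where 16.3% and 19.1% of all genes were called in these directions. Their median log2 difference was 0.22, against -0.01 over all genes. The median was 0.24 for the 74 members of 19p, 25 of them higher and 0 lower, and 0.21 for the 164 of 19q, 53 higher and 11 lower, so that the arms differed by 0.03. The difference between the arms in single libraries had an SD of 0.05 between replicates, and the 0.03 rests on means of several libraries. Without the library that stood apart both medians were 0.17. All 4 libraries of *SMARCA4* knockdown lay above all 4 of *SMARCA1* knockdown for 68 members and below them for 5, where 13.0% and 13.8% of all genes did so. Without the library that stood apart, the median over members was 0.17, against -0.003 over all genes. Without either control library fewer members were called, as were fewer of all genes, and the median over members was 0.24. Over the fits with 1 library left out that median was 0.17 to 0.31. Calls of members were fewest without the second library of *SMARCA4* siRNA B and most without the second of *SMARCA1* siRNA A. They were also fewer without either library of *SMARCA1* siRNA C. Calls over all genes moved the same way in those fits.

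By cluster, the median difference was highest in cluster 16 (0.46, with 21 higher and 2 lower of 41), then in cluster 10 (0.34, 12 and 2 of 27) and cluster 6 (0.31, 10 and 0 of 31). It was 0.25 in cluster 13, 0.24 in cluster 2, 0.22 in cluster 3, 0.05 in cluster 9 with none of 5 called and -0.08 in cluster 1 with 1 of 5 higher. In cluster 17, the largest, it was 0.08 with 9 higher and 6 lower of 59, both below the shares over all genes. Without the library that stood apart the medians of clusters 16, 10 and 6 were 0.30, 0.22 and 0.17.

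**Figure D1:**
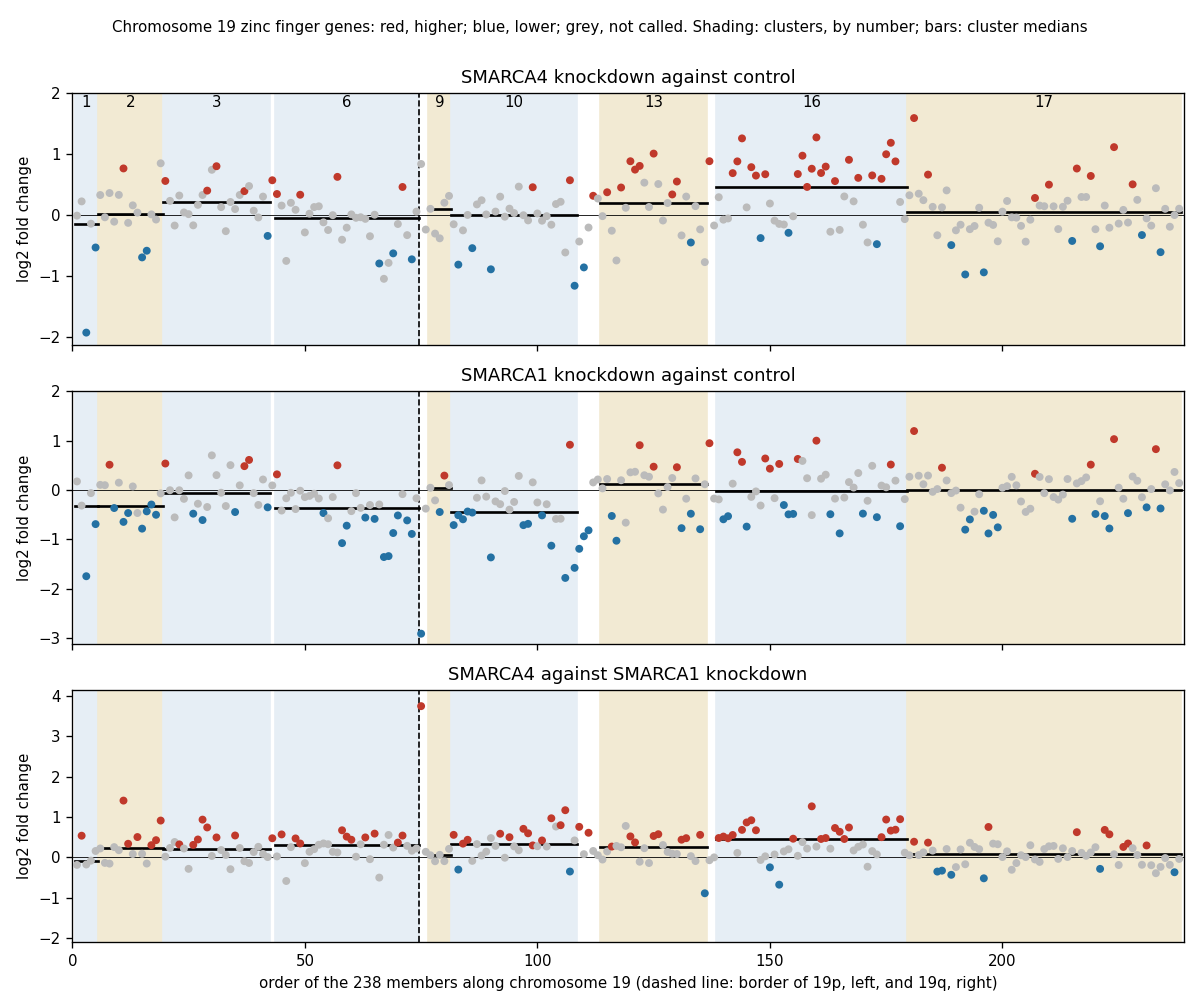
Log2 fold changes of the 238 members (points) in their order along chromosome 19, for each knockdown against the controls and for the knockdowns against each other (red, called higher; blue, called lower; grey, not called). Shaded blocks are clusters with their numbers, black bars their medians and the dashed line the border of the arms; in cluster 16 the bar of *SMARCA4* knockdown stands at 0.46, and in cluster 10 that of *SMARCA1* knockdown at -0.44.

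Among members at a mean of at least 1 CPM whose knockdown libraries did not overlap, the 5 largest differences toward *SMARCA4* knockdown were in *ZNF699* of cluster 2, *ZNF611*, *ZNF813* and *ZNF525* of cluster 16, and *ZNF793* of cluster 10, all with a KRAB-A-like pattern. *ZNF699* (chr19:9291140-9309838) read 3.53 and 2.67 CPM for *SMARCA4* siRNA A, 3.37 and 2.95 for siRNA B, 1.12 and 0.975 for *SMARCA1* siRNA A and 1.44 and 1.2 for siRNA C, with 1.71 and 1.97 in the controls (log2 fold change 1.41 ± 0.17 (SE), adjusted p = 3.0e-04 between the knockdowns). The controls lay between the knockdowns, and *ZNF699* was the 1 member called in opposite directions against them, at 0.76 and -0.65. *ZNF611* (chr19:52702813-52735073) read 34.0 and 28.1 CPM and 25 and 21.9 CPM with the *SMARCA4* siRNAs, 6.80 and 11.8 CPM and 13.2 and 14 CPM with the *SMARCA1* siRNAs, and 17.3 and 14.7 CPM in the controls (log2 fold change 1.26 ± 0.16 (SE), adjusted p = 3.7e-04). The lowest *SMARCA4* library thus stood above every other. The lowest value was that of the library that stood apart, without which the difference was 1.10 (adjusted p = 1.1e-04). *ZNF813*, *ZNF525* and *ZNF793* had differences of 0.95, 0.94 and 0.97 (adjusted p = 1.6e-04, 0.0011 and 0.001).

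Toward *SMARCA1* knockdown, 5 members met the same rule. *ZNF610* of cluster 16 was at 11.0 to 13.4 CPM with *SMARCA1* knockdown and 7.05 to 8.14 CPM with *SMARCA4* knockdown, around 9.33 and 7.58 CPM in the controls (log2 fold change -0.67 ± 0.11 (SE), adjusted p = 0.0015). *ZNF835* of cluster 17, a finger gene without the KRAB pattern, was at 6.35 to 7.70 and 4.23 to 5.66 CPM, and lower in both than the 10 and 8.51 CPM of the controls (log2 fold change -0.52 ± 0.11 (SE), adjusted p = 0.005). *ZNF324*, *ZNF787* and *ZNF766* differed by -0.37, -0.33 and -0.25 (adjusted p = 0.027, 0.039 and 0.0462), and these calls were near the threshold. Leaving out 1 library gave an adjusted p of up to 0.113 for *ZNF324* (without the second library of *SMARCA4* siRNA B; the call was also lost without the second of siRNA A or either of *SMARCA1* siRNA C), 0.124 for *ZNF787* (same library; lost without any library but the second of *SMARCA1* siRNA A) and 0.193 for *ZNF766* (without the second library of *SMARCA1* siRNA C; lost in the same fits as *ZNF787*, and with DESeq2). Below 1 CPM, *ZNF536*, a neuronal zinc finger gene near the border of the arms, had the largest difference of all members (log2 fold change 3.75 ± 0.49 (SE), adjusted p = 4.7e-04). Its raw counts were 15 and 21 in the controls, 27 to 73 with *SMARCA4* knockdown and 1 to 7 with *SMARCA1* knockdown, and it was chosen for mention after its values were seen.

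Over the 5 conditions, the median member of each library was set against the mean of the controls (log2 of CPM plus 0.1). On 19p it was 0.13 and 0.05 with *SMARCA4* siRNA A, -0.02 and -0.04 with siRNA B, -0.45 and -0.08 with *SMARCA1* siRNA A and -0.22 and -0.17 with siRNA C. On 19q it was 0.17 and 0.14, 0.05 and 0.05, -0.26 and -0.02 and -0.07 and -0.09. In every library of either knockdown the 19q median stood above the 19p median. Within 19q, cluster 16 was at 0.59, 0.44, 0.40 and 0.44 in the 4 *SMARCA4* libraries and cluster 10 at 0.02, 0.14, -0.12 and -0.10, so the difference between these clusters exceeded that between the arms. In the *SMARCA1* libraries cluster 10 was at -0.67, -0.17, -0.39 and -0.42 and cluster 6 of 19p at -0.66, -0.20, -0.37 and -0.22, with the lowest value of each in the library that stood apart.

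**Figure D2:**
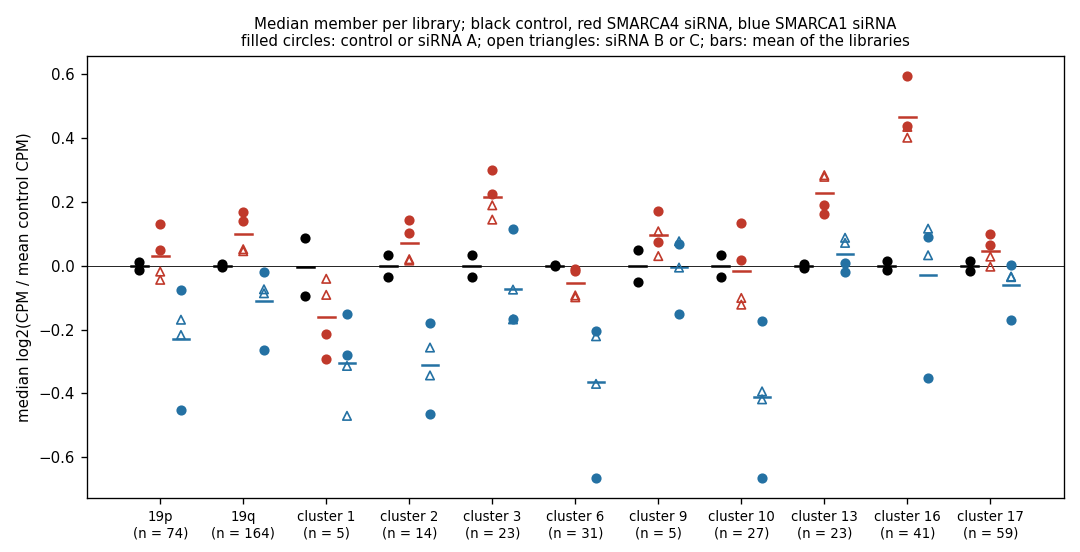
Median log2 ratio of members to the control mean in each of the 10 libraries, for the arms and clusters (n, members; black, control; red, *SMARCA4* siRNA; blue, *SMARCA1* siRNA; filled, control or siRNA A; open triangles, siRNA B or C; bars, means of the libraries). The 4 *SMARCA4* libraries of cluster 16 lie between 0.40 and 0.59, and the lowest blue circle of clusters 6, 10 and 16 is the first library of *SMARCA1* siRNA A.

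Against the controls, *SMARCA4* knockdown raised more members than it lowered. Their summed level was 5630 CPM in the controls (n = 2) and 6768 ± 241 CPM with *SMARCA4* knockdown (SD, n = 4), 1.2 times as high, and that of cluster 16 went from 2313 to 3443 ± 198 CPM, 1.49 times as high. Of 238, 51 were higher and 24 lower, where 22.8% and 22.3% of all genes were called in these directions, so the share that rose was close to that of all genes and the share that fell was lower than theirs. All genes here include some under the floor of control counts, which pass the filter mainly through libraries where they are higher. The member rule thus bears on how these shares compare, and shares over genes with the same floor are not given here. The median log2 fold change was 0.08 (19p 0.02, 19q 0.11, a difference of -0.09 that was -0.03 without the first control), against 0.002 over all genes and -0.04 over genes with the same floor of counts. Cluster 16 held 21 of the 51 rises and had 3 falls among its 41 members, with a median of 0.46. Against the control mean, its median member stood at 0.59 and 0.44 in the libraries of siRNA A and at 0.40 and 0.44 in those of siRNA B. Clusters 13 and 3 followed, with 8 and 4 of 23 higher and 1 lower each. In clusters 6, 10 and 17 rises and falls were 4 and 3, 2 and 4, and 8 and 7. Without the first or the second control library, fewer members were called, as were fewer of all genes. The medians over members were then 0.12 and 0.08, against 0.04 over all genes in each fit. In cluster 16 the median was 0.42 to 0.55 over all fits with 1 library left out.

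The 5 largest rises called with both *SMARCA4* siRNAs at 1 CPM or more were in *ZNF579*, *ZNF600*, *ZNF615*, *ZNF765* and *ZNF418*. *ZNF579* (chr19:55576774-55580848, cluster 17), whose 8 fingers come without the KRAB pattern, stood at 19.5 and 20.9 CPM in the controls, 68.7 and 56.6 under siRNA A and 61.0 and 56.3 with siRNA B (log2 fold change 1.58 ± 0.14 (SE), adjusted p = 2.4e-05). It was at 38.9 to 50.7 CPM with *SMARCA1* knockdown, so every knockdown library stood above both controls. *ZNF615* (chr19:51991332-52008230, cluster 16), the member at the highest level per kb, was at 311 and 292 CPM in the controls, 776 and 595 with siRNA A and 791 and 712 with siRNA B (log2 fold change 1.25 ± 0.18 (SE), adjusted p = 4.1e-04). With *SMARCA1* siRNA A it was at 284 and 449 CPM and with siRNA C at 538 and 554, and the lower of these, from the library that stood apart, was under the controls. *ZNF615* made up 36.7% of the net gain of members in summed CPM under *SMARCA4* knockdown, and *ZNF761* another 22.4%. *ZNF765* of cluster 16 was at 93.7 ± 9.87 CPM (SD, n = 4) against 42.6 and 40.1 (log2 fold change 1.18 ± 0.12 (SE), adjusted p = 6.7e-05). *ZNF600* of cluster 16 and *ZNF418* of cluster 17 rose by 1.27 and 1.11 (adjusted p = 0.0014 and 2.7e-04), and by 1.00 and 1.03 with *SMARCA1* knockdown, where the call of *ZNF600* was lost without the first control (adjusted p = 0.0586).

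The largest falls with both *SMARCA4* siRNAs were in *ZNF556*, *ZNF835*, *ZNF780B*, *ZNF146* and *ZNF726*. *ZNF556* (chr19:2867335-2883445, cluster 1) was at 9.83 and 9.81 CPM in the controls, 2.79 and 3.24 with *SMARCA4* siRNA A and 1.92 and 2.53 with siRNA B (log2 fold change -1.92 ± 0.15 (SE), adjusted p = 1.4e-05), and at 2.79 to 3.13 CPM with *SMARCA1* knockdown (log2 fold change -1.75 ± 0.15 (SE), adjusted p = 3.6e-05). The 8 knockdown libraries all lay below both controls. *ZNF146* (chr19:36214602-36238771, cluster 10), a protein made of little more than its 10 fingers, was at 256 and 247 CPM in the controls, 129 to 158 with *SMARCA4* knockdown (log2 fold change -0.81 ± 0.11 (SE), adjusted p = 3.0e-04) and 146 to 192 with *SMARCA1* knockdown (log2 fold change -0.51 ± 0.11 (SE), adjusted p = 0.0044). *ZNF835*, *ZNF780B* and *ZNF726* fell by 0.94, 0.86 and 0.73 on the log2 scale (adjusted p = 2.8e-04, 0.0058 and 0.0035), and without the first control the adjusted p was 0.0811 for *ZNF780B* and 0.0562 for *ZNF726*.

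**Figure D3:**
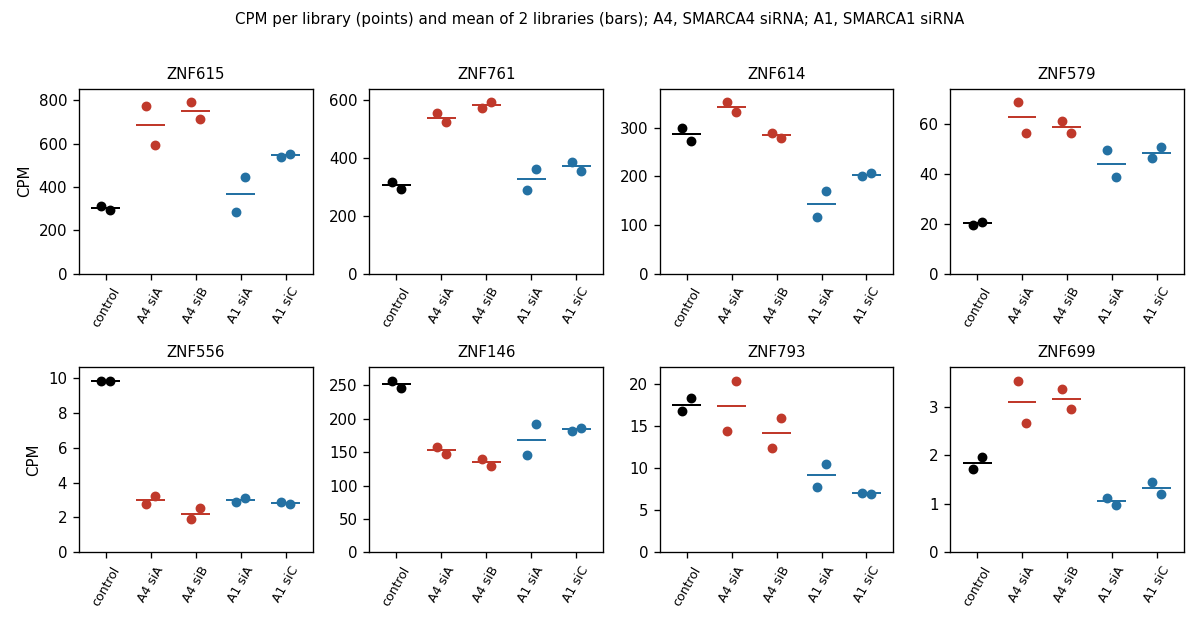
CPM of 8 members in each library (points) with the mean of the 2 libraries (bars), for the controls (black), *SMARCA4* siRNAs (red) and *SMARCA1* siRNAs (blue), on linear axes from 0. *ZNF615*, *ZNF761* and *ZNF579* lie above the controls in all *SMARCA4* libraries, *ZNF556* and *ZNF146* below them in all 8 knockdown libraries, and *ZNF793* and *ZNF699* differ between the knockdowns.

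Cluster 16 was not raised as a block. Near its centromeric end, *ZNF577*, *ZNF649* and *ZNF614* had log2 fold changes of -0.08, -0.06 and 0.12 in *SMARCA4* knockdown, none of them called, while *ZNF613*, *ZNF350*, *ZNF615* and *ZNF432*, their neighbours, rose by 0.68, 0.88, 1.25 and 0.78. *ZNF350* encodes a *BRCA1*-binding repressor, and its level went from 148 and 149 CPM in the controls to 205 to 335 CPM with *SMARCA4* knockdown and 211 to 295 CPM with *SMARCA1* knockdown. From *ZNF480* to *ZNF808*, 5 neighbours, no member was called higher and *ZNF528* was called lower (-0.29). From *ZNF701* to *ZNF468* every one of 7 neighbours was called higher, between 0.46 and 1.27, and from *ZNF845* to *ZNF761* so were 4 of 4. These runs were picked after their values were seen. *ZNF761* (chr19:53431984-53461862) was at 318 and 292 CPM in the controls, 554 and 522 with *SMARCA4* siRNA A and 572 and 591 with siRNA B (log2 fold change 0.88 ± 0.11 (SE), adjusted p = 2.0e-04), and 290.1 to 387 CPM with *SMARCA1* knockdown (log2 fold change 0.19 ± 0.11 (SE), adjusted p = 0.18), which became a call without the library that stood apart (0.26, adjusted p = 0.0234). At the telomeric end, *ZNF331*, an imprinted gene, stayed at 54.6 to 72.0 CPM against 62.1 and 69.3 (log2 fold change -0.07 ± 0.10 (SE), adjusted p = 0.62). Of 14 other genes within the span of cluster 16 with the same floor of counts, 4 were higher and 2 lower with *SMARCA4* knockdown, with a median of 0.14. Over all genes 22.8% were called higher and 22.3% lower.

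**Figure D4:**
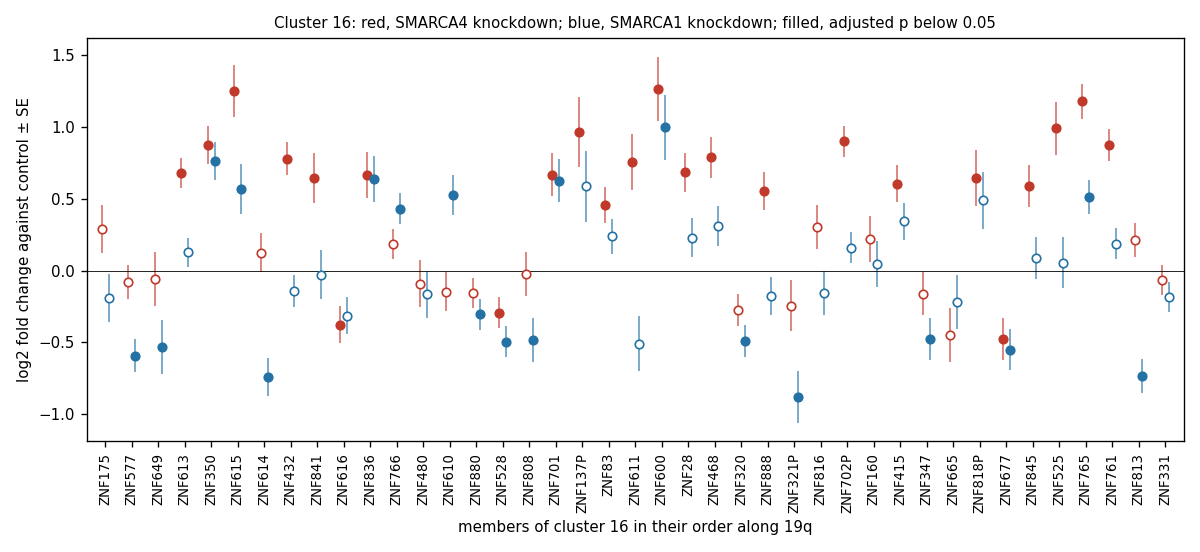
Log2 fold change ± SE against the controls of the 41 members of cluster 16 in their order along 19q, for *SMARCA4* knockdown (red) and *SMARCA1* knockdown (blue), filled where the adjusted p was below 0.05. In *SMARCA4* knockdown 21 filled red points stand above 0 and 3 below, and uncalled members lie between raised neighbours.

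With *SMARCA1* knockdown more members fell than rose. Of 238, 70 were lower and 26 higher, where 23.0% and 23.8% of all genes were called in these directions, and the median was -0.15, against -0.004 over all genes and -0.05 over genes with the same floor. As with *SMARCA4* knockdown, the shares over all genes include genes under the floor, so the member rule bears on how the shares compare. On 19p 24 of 74 were lower and 6 higher (median -0.29), and on 19q 46 of 164 lower and 20 higher (median -0.09). The 19p median was lower by 0.20, or by 0.08 without the library that stood apart and by 0.10 without the first control. The lowest medians were those of cluster 10 (12 of 27, 1 higher, median -0.44), cluster 6 (11 of 31, 2 higher, median -0.36) and cluster 2 (7 of 14, 1 higher, median -0.33). In cluster 16, 11 fell and 8 rose, around a median of -0.03, and in cluster 17 13 and 6. Without the library that stood apart, the medians were -0.07 over members and -0.01 over all genes. They were -0.29 in cluster 10, -0.25 in cluster 6 and -0.26 in cluster 2. Without the first or the second control library fewer members were called, as were fewer of all genes. The medians over members were then -0.12 and -0.10, against 0.02 and 0.03 over all genes.

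The 5 largest falls with both *SMARCA1* siRNAs were in *ZNF556*, given above, and in *ZNF573*, *ZNF850*, *ZNF546* and *ZNF793*. *ZNF573* (chr19:37735833-37817300), *ZNF850* and *ZNF793* belong to cluster 10, and *ZNF546* lies on 19q outside the clusters. *ZNF850*, whose protein has 29 fingers, was at 14.6 and 15.2 CPM in the controls, 3.87 and 7.11 with *SMARCA1* siRNA A and 6.21 and 6.02 with siRNA C (log2 fold change -1.37 ± 0.20 (SE), adjusted p = 4.8e-04). *ZNF573* was at 6.06 and 7.25, 1.19 and 3.37 and 2.21 and 2.19 CPM in the same order (log2 fold change -1.58 ± 0.31 (SE), adjusted p = 0.0025). The lowest value of each came from the library that stood apart, without which the log2 fold changes were -1.18 (adjusted p = 1.3e-04) and -1.29 (adjusted p = 9.2e-04). *ZNF793* (chr19:37506939-37548762) was at 16.7 and 18.3 CPM in the controls and 6.95 to 10.5 with *SMARCA1* knockdown (log2 fold change -1.13 ± 0.17 (SE), adjusted p = 6.8e-04). With *SMARCA4* knockdown it ranged from 12.3 to 20.3 CPM, around the controls. *ZNF546* fell by 1.19 on the log2 scale (adjusted p = 0.0011).

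The largest rises with both *SMARCA1* siRNAs were in *ZNF579*, *ZNF418* and *ZNF600*, which also rose with *SMARCA4* knockdown, and in *ZNF541* and *ZNF607*. *ZNF579* was at 46.3 ± 5.31 CPM (SD, n = 4) against 19.5 and 20.9 in the controls (log2 fold change 1.19 ± 0.13 (SE), adjusted p = 1.4e-04). *ZNF607* of cluster 10, with 12.6% of its exon bases shared with another gene, rose from 28.7 and 27 CPM to 38.8 and 48.4 with siRNA A and 64.6 and 62.5 with siRNA C (log2 fold change 0.92 ± 0.16 (SE), adjusted p = 0.0011). It was the 1 rise in a cluster where 12 members fell. *ZNF541*, a germ cell gene, was low throughout, at 1.42 and 1.49 CPM in the controls and 2.19 to 3.20 CPM with *SMARCA1* knockdown (log2 fold change 0.95 ± 0.26 (SE), adjusted p = 0.014), a call lost without either control (adjusted p = 0.0842 and 0.0725). *ZNF614* (chr19:52012765-52030240), the neighbour of *ZNF615*, moved the other way from it, at 300.2 and 273 CPM in the controls, 117 and 171 with siRNA A and 200.2 and 206 with siRNA C (log2 fold change -0.74 ± 0.13 (SE), adjusted p = 0.0015). Its lowest value came from the library that stood apart, without which it had -0.62 (adjusted p = 1.8e-04). With *SMARCA4* knockdown it was at 279.5 to 352 CPM.

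Of 10 members with a known part in silencing or in tumours, 3 were called with *SMARCA4* knockdown (*ZNF146*, *ZNF93* and *ZNF671*) and 4 with *SMARCA1* knockdown (*ZNF146*, *ZNF91*, *ZNF417* and *ZNF587*), where 75 and 96 of all 238 members were. All genes had 22.8% higher and 22.3% lower with *SMARCA4* knockdown, and 23.8% and 23.0% with *SMARCA1* knockdown. *ZNF274*, which brings *SETDB1* to zinc finger genes, was at 21.8 and 21.8 CPM in the controls, 22.7 to 29.6 with *SMARCA4* knockdown (log2 fold change 0.25 ± 0.12 (SE), adjusted p = 0.12) and 21.4 to 28 with *SMARCA1* knockdown (log2 fold change 0.19 ± 0.12 (SE), adjusted p = 0.22). Its libraries overlapped between the knockdowns, and without the second library of *SMARCA4* or of *SMARCA1* siRNA A the rise with *SMARCA4* knockdown was called (adjusted p = 0.0456 and 0.0457). *ZNF91*, which silences SVA elements, was at 37.3 and 40.8 CPM in the controls and 20.4 to 31.5 with *SMARCA1* knockdown (log2 fold change -0.52 ± 0.15 (SE), adjusted p = 0.016, and 0.0672, 0.129 and 0.0529 without the first control, the second control or the first library of *SMARCA1* siRNA C), while *SMARCA4* knockdown gave 32.6 to 37.2 CPM and no call (adjusted p = 0.44). *ZNF93*, which silences LINE-1 elements, rose by 0.33 with *SMARCA4* knockdown (adjusted p = 0.045), a call lost without either control (adjusted p = 0.128 and 0.156), without 5 of the other libraries or with DESeq2, and had -0.02 with *SMARCA1* knockdown. *ZNF85*, their neighbour in cluster 6, had -0.004 and -0.14, neither of them called. *ZNF417* and *ZNF587*, close relatives that silence HERV-K elements, fell with *SMARCA1* knockdown by 0.78 and 0.53 on the log2 scale (adjusted p = 0.016 and 0.028), with levels of 6.15 to 11.7 CPM against 16.5 and 14.9 and 19.3 to 31.2 CPM against 36.3 and 38.5. Without either control both calls were lost (adjusted p = 0.129 and 0.0675 for *ZNF417*, 0.118 and 0.163 for *ZNF587*), and that of *ZNF587* was lost without either library of *SMARCA1* siRNA C too (0.0791 and 0.0512). Such relatives may share reads. With *SMARCA4* knockdown they had -0.21 and 0.15 (adjusted p = 0.48 and 0.5). *ZNF671*, a gene often silenced by methylation in tumours, rose from 3.81 and 3.27 CPM to 4.89 to 7.75 CPM with *SMARCA4* knockdown (log2 fold change 0.76 ± 0.17 (SE), adjusted p = 0.0054, and 0.0644 without the second control) and was at 3.45 to 4.19 CPM with *SMARCA1* knockdown (adjusted p = 0.55). *ZNF382*, another such gene, had 0.17 and -0.16, and neither was called. *ZNF154*, the third of them, was no member, with 1 count in 1 control library and 0 in all others.

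*SMARCA4* itself lies on 19p, between clusters 2 and 3, and the 3 members nearest on each side were examined. Toward the telomere, *ZNF561* and *ZNF562* had 0.01 and -0.08 in *SMARCA4* knockdown, at 32.4 to 37.4 CPM against 36.4 and 33.1 and 36.5 to 48.4 CPM against 47.2 and 43.1, and the libraries overlapped. *ZNF846* had 0.84 at under 2 CPM in every library (adjusted p = 0.095). Toward the centromere, *ZNF653* rose from 4.73 and 4.50 CPM to 6.29 to 7.17 CPM (log2 fold change 0.56 ± 0.14 (SE), adjusted p = 0.0081) and by 0.54 with *SMARCA1* knockdown. The first of these calls was lost without the second control (adjusted p = 0.0644) and the other without either (0.0513 and 0.0753). *ZNF627* and *ZNF887P* had 0.23 and -0.17 (adjusted p = 0.16 and 0.59). With *SMARCA1* knockdown, *ZNF561* and *ZNF562* fell by 0.30 and 0.50 on the log2 scale (adjusted p = 0.044 and 0.0099). Without the first control the adjusted p was 0.336 and 0.115, and that of *ZNF561* passed 0.05 without any library but those of *SMARCA1* siRNA A. Both promoters hold AAGATGGC, as that of *ZNF615* does.

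The siRNAs against the same target could be compared directly. Between *SMARCA4* siRNA A and siRNA B, 7 of 238 members were called, all higher with siRNA A, where 6.20% of all genes were called in either direction. They were *ZNF667*, *ZNF616*, *ZNF542P*, *ZNF585B*, *ZNF558*, *ZNF738* and *ZNF823*, from 6 clusters. *ZNF667* of cluster 17 stood at 8.17 and 8.71 CPM under siRNA A, 3.96 and 3.89 under siRNA B and 11.2 and 11.4 in the controls (log2 difference 1.10 ± 0.17 SE, adjusted p = 0.01). *ZNF616* of cluster 16 stood at 39.4 and 35.8 CPM under siRNA A, 36.6 and 33.7 in the controls and 20.7 and 18.1 under siRNA B (log2 difference 0.95 ± 0.15 SE, adjusted p = 0.012). It was called lower against the controls with siRNA B (-0.85, adjusted p = 0.0014) and not with siRNA A (0.10, adjusted p = 0.65). Between *SMARCA1* siRNA A and siRNA C, 0 members were called by edgeR and 2 by DESeq2, where 0.0118% of all genes were called by edgeR and 3.05% by DESeq2. An unadjusted p below 0.05 was found for 25 members (10.5%), 22 of them (9.24%) lower with siRNA A, where 17.1% of all genes had one and 9.99% had one and were lower. Without the second library of *SMARCA1* siRNA A 34 members (14.3%) were called, 31 of them lower, and 10.9% of all genes, 7.07% lower. That fit sets the library that stood apart alone against siRNA C. The calls of members between *SMARCA4* siRNAs were lost without the second library of siRNA A or either of siRNA B. They were fewer without either control or either library of *SMARCA1* siRNA C, and more without either library of *SMARCA1* siRNA A. Calls over all genes were also fewer or more in the same fits.

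The partners through which KRAB zinc finger proteins silence were given as a list of 30 genes, of which 28 were tested. In *SMARCA4* knockdown 4 were higher and 9 lower, and in *SMARCA1* knockdown 4 were higher and 7 lower, with medians of -0.09 and 0.002. Of all genes, 22.8% were higher and 22.3% lower with *SMARCA4* knockdown, and 23.8% and 23.0% with *SMARCA1* knockdown. *TRIM28*, the corepressor itself and a chromosome 19 gene, was at 511 and 533 CPM in the controls, 415 to 463 with *SMARCA4* knockdown (log2 fold change -0.24 ± 0.10 (SE), adjusted p = 0.077) and 483 to 599 with *SMARCA1* knockdown (log2 fold change -0.02 ± 0.10 (SE), adjusted p = 0.85). *SETDB1* was barely past the threshold with *SMARCA4* knockdown (log2 fold change 0.24 ± 0.09 (SE), adjusted p = 0.0497) and not with *SMARCA1* knockdown (0.21, adjusted p = 0.071). *MORC3* and *RESF1*, which take part in silencing transposable elements, rose with *SMARCA4* knockdown by 0.81 and 0.78 (adjusted p = 0.0042 and 0.0052), and *H3-3B*, a gene of histone H3.3, and *DAXX*, its chaperone, rose with *SMARCA1* knockdown by 0.50 and 0.46 (adjusted p = 0.0044 and 0.01). *CBX5*, the HP1-alpha gene, had the largest fall of the list in either knockdown, from 385 and 347 CPM to 90.8 to 189.8 CPM with *SMARCA4* knockdown (log2 fold change -1.46 ± 0.24 (SE), adjusted p = 8.7e-04) and 82.1 to 181 CPM with *SMARCA1* knockdown (log2 fold change -1.79 ± 0.24 (SE), adjusted p = 3.2e-04). *CBX1* and *CBX3*, the other HP1 genes, had -0.49 and -0.78 with *SMARCA4* knockdown (adjusted p = 0.0016 and 1.1e-04) and -0.01 and -0.31 with *SMARCA1* knockdown (adjusted p = 0.93 and 0.018). *SUV39H2*, an H3K9 methyltransferase, fell by 0.78 and 0.88 on the log2 scale. *UHRF1*, which guides *DNMT1* to newly copied DNA, fell by 0.97 with *SMARCA4* knockdown and had 0.001 with *SMARCA1* knockdown, and the knockdowns differed by -0.97 (adjusted p = 8.6e-05). *ATRX*, a remodeler of H3.3 heterochromatin, was lower with *SMARCA1* than with *SMARCA4* knockdown (-0.85 and -0.39 against the controls, difference 0.46, adjusted p = 0.01). The genes of this list that changed did so in the same libraries as the members, and their part in the members' levels was not tested.

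Beside members stood 235 numbered ZNF genes of other chromosomes and 851 other chromosome 19 genes with the same floor of counts. With *SMARCA4* knockdown the ZNF genes elsewhere had 46 higher, 35 lower and a median of 0.01, and with *SMARCA1* knockdown 39 higher, 60 lower and -0.11. The other chromosome 19 genes had 248 higher, 174 lower and 0.08 with *SMARCA4* knockdown, and 266 higher, 139 lower and 0.11 with *SMARCA1* knockdown. Between the knockdowns the medians were 0.22 for members, 0.11 for ZNF genes elsewhere and -0.06 for the other genes of the chromosome, with 46 higher and 18 lower of 235 and 120 higher and 190 lower of 851. Over all genes, the shares called higher and lower were 22.8% and 22.3% with *SMARCA4* knockdown and 23.8% and 23.0% with *SMARCA1* knockdown. Between the knockdowns they were 16.3% and 19.1%. The differences between these sets were not tested.

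Within the members, the 153 with the KRAB-A-like pattern had 15 higher and 51 lower with *SMARCA1* knockdown (median -0.19) and the 75 translated without it 11 and 16 (median 0.06). With the looser pattern the medians were -0.18 and 0.02. With *SMARCA4* knockdown the medians were 0.02 and 0.13. Of the 14 members with AAGATGGC in the promoter, 10 were higher and 0 lower with *SMARCA4* than with *SMARCA1* knockdown (median 0.48), and of the 190 without it 56 and 9 (median 0.21). They included the 4 cluster 16 neighbours printed above, whose differences were 0.56 for *ZNF613*, 0.68 for *ZNF615*, 0.87 for *ZNF614* and 0.92 for *ZNF432*. Of the 43 with CCGGAAGT, 11 were higher and 4 lower (median 0.14), against 55 and 5 of 161 (median 0.23). Of all genes, 23.8% were higher and 23.0% lower with *SMARCA1* knockdown, and 16.3% were higher and 19.1% lower with *SMARCA4* than with *SMARCA1* knockdown. Clusters, duplicated promoters and levels are shared among these members, and no difference between the subsets was tested. For members ranked by control level and cut into 3 groups of like size, the medians between the knockdowns were 0.24, 0.21 and 0.23 from low to high.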

How the data were processed

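RNA-seq of VCaP cells was read as raw counts per gene for 10 libraries. Per the paper's methods and the submitters' processing notes, the authors aligned stranded paired-end reads of polyadenylated RNA to GRCh38 with HISAT2 2.1.0 and deposited counts made with featureCounts 1.5.2 on GENCODE exons (release not given in the sources used here), to which IGF1R-AS1 was added. How reads that fit several copies of a duplicated gene were counted is not given in the sources used here, and either choice can lower or mix the counts of close relatives.

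From these counts, edgeR 4.0.16 (R 4.3.3) kept 16899 genes with filterByExpr, scaled them by TMM and fitted a quasi-likelihood model to the 5 conditions. A knockdown was the mean of its siRNAs. Adjusted p-values are Benjamini-Hochberg values over all 16899 genes, a gene was called below 0.05, and SEs were taken from the fold change and the F statistic. The fit was tested on simulated data. DESeq2 1.42.0, other scalings, filters and member rules, a replicate block and leaving out each library were tried. Members and lists were chosen with earlier results of these data known. Named genes were the 5 largest rises and falls called with both siRNAs of a target at a mean of 1 CPM or more, the 5 largest differences each way between knockdowns that did not overlap, the 5 highest per kb of exon, 11 genes of known role, the 3 nearest SMARCA4 on each side and the 2 largest differences each way between siRNAs. Exon lengths and shared exon bases came from the annotation columns of the deposited counts. Finger counts and the KRAB-A-like pattern came from GENCODE 44 transcripts, and promoters from RefSeq. The lettered siRNAs are not tied to sequences in the sources, and no batch or date is given.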

Additional observations from a re-analysis of the deposited data

Results flagged for a closer look

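In the SMARCA1 knockdown, the first library of siRNA A lay far from the other 3 for 2 of 96 groups of 4 libraries screened. That is fewer than the about 1 in 20 that chance gives. The first library of siRNA A held 76.2 CPM of *ZNF787*, above the other 3, and 74.96 CPM of *ZNF649*, below them. This is the library that stood apart in its share of counts from members.

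*ZNF699* differed between the knockdowns by 1.41 on the log2 scale in a direct test (edgeR's quasi-likelihood test, adjusted p = 3.0e-04), with all 4 SMARCA4 libraries above and all 4 SMARCA1 libraries below both controls.

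Among the 5 genes below the floor of counts that could be tested, *ZNF725P* was higher than in the controls with SMARCA4 knockdown (log2 fold change 2.17, adjusted p = 0.014) and with SMARCA1 knockdown (2.85, adjusted p = 0.0027). *ZNF575* was higher with SMARCA4 knockdown (1.80, adjusted p = 0.0039). A gene under the floor passes the filter of the fit mainly through libraries where it is higher, so no rate is drawn from these.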

How the results depend on the processing

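Over the fits that left out 1 library, 39 to 109 members were called in SMARCA4 knockdown (75 in the fit reported), 35 to 130 in SMARCA1 knockdown (96), 49 to 140 between the knockdowns (89), 0 to 21 between SMARCA4 siRNAs (7) and 0 to 34 between SMARCA1 siRNAs (0). A minimum fold change of 1.2 left 49, 53, 37 and 4 in the first 4 of these. Calls over all genes also rose and fell in the fits with 1 library left out. Between SMARCA4 siRNAs DESeq2 called 11 and no filter 14, and between SMARCA1 siRNAs they called 2 and 6. The median between SMARCA1 siRNAs was -0.20 to 0.089 over these fits and 0.0075 with library totals only. The 19p median less the 19q median was -0.11 to -0.027 in SMARCA4 knockdown, -0.23 to -0.080 in SMARCA1 knockdown and -0.0012 to 0.054 between the knockdowns. No scaling moved the median of all genes by over 0.1. With a gap of 500000 bases clusters 6, 10 and 16 had the same bounds and numbers of members, and cluster 17 split.

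Reversals among named genes were confined to values that were not called. Over the fits with 1 library left out, SMARCA4 knockdown gave -0.058 to 0.012 for *ZNF649*, -0.012 to 0.075 for *ZNF85* (0.0055 with DESeq2), -0.11 to 0.042 for *ZNF331*, -0.029 to 0.12 for *ZNF561*, -0.11 to 0.029 for *ZNF562* and -0.27 to 0.013 for *ZNF887P*. SMARCA1 knockdown gave -0.069 to 0.039 for *ZNF93*, -0.28 to 0.014 for *ZNF382*, -0.44 to 0.18 for *ZNF846* and -0.14 to 0.18 for *ZNF627*. The cause was not tested. Of 816 such values for named genes 702 had the same direction and side of the threshold, 75 lost a call and 5 gained one.

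The deviations of same-numbered libraries correlated by -0.10 to 0.36 over the 10 pairs of conditions and by over 0.1 in 3 of them, all among SMARCA4 siRNA A, SMARCA4 siRNA B and SMARCA1 siRNA A, so the numbers were not taken as pairs. With the replicate number as a block, 74, 98 and 88 members were called in SMARCA4 knockdown, SMARCA1 knockdown and between the knockdowns, and 7 and 0 between siRNAs. The block ended the calls of *ZNF561* in SMARCA1 knockdown (adjusted p = 0.0507) and *ZNF766* between the knockdowns (0.0502). With 2 libraries a condition, the spread rests on 5 residual degrees of freedom.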
